A study of Homo sapiens with 24 samples.

Results

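A549 cells treated with an extract of Polyporus umbellatus (P. umbellatus, labelled ZL) were compared with control A549 cells in 3 sequenced libraries of each group. P. umbellatus is a polypore fungus used in traditional Chinese medicine. A549 is a human lung adenocarcinoma line, and its genotype is labelled WT in both groups. The 6 libraries belong to a series of 24, in which A549 cells and the human hepatoma line Huh7 were left as control or were given an extract of P. umbellatus, of Pulsatilla chinensis (P. chinensis, labelled BTW) or of Bupleurum chinense (B. chinense, labelled CH). The genes compared were all those with a mean above 5 counts in the 6 libraries, 13588 of the 14585 genes in the table, while 997 genes fell at or below that mean. The extracts were dissolved in DMSO, but the dose and time for the sequenced cells, and whether control cells received DMSO, were not given in the sources used here. The line stands for a single tumour, and an extract is a mixture whose active compounds the labels do not name. Nothing states that the 3 libraries of a group came from separate cultures, so the p-values measure the spread between these libraries, which may be technical.

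Many of the p53 targets and cell cycle genes tested were changed, but what part of all changed genes they make up was not counted. The p53 protein binds DNA and switches on genes that halt the cell cycle, repair DNA and start cell death, and the ubiquitin ligase MDM2, itself made from a p53 target, removes p53 again. One p53 target, CDKN1A, encodes p21, an inhibitor of cyclin-dependent kinases. When these kinases are held back, the pocket proteins of the RB family stay bound to E2F factors, and the MuvB complex together with E2F and pocket proteins silences the genes needed for replication and mitosis. Promoters of replication genes often carry an E2F site, and those of mitotic genes a cell cycle homology region (CHR) near a CCAAT box.

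Estimated counts summed to between 8160045 and 10616955 in the control libraries and between 8056191 and 17175624 with P. umbellatus, where replicate 1 was the deepest. Replicates differed by more than sampling noise, the median chi-square over genes being 2.72 to 4.52 times that of sampling alone in the 6 pairs of libraries within a group. The 12 epithelial and A549 markers were all detected and, with raw counts scaled to a common library total (CPM), summed to 21600 to 22100 CPM in control libraries and 22000 to 23100 with the extract. Of 9 markers of alveolar type II cells, the cell type that A549 is often used to model, 3 were in the table, at 61.2 to 66.8 CPM in control and 128 to 140 with the extract, nearly all of it ABCA3. Hepatocyte markers summed to 145 to 159 CPM in control and 80.2 to 92.9 with the extract, against 19900 to 20200 in Huh7 control cells, and fibroblast markers to 8.33 to 9.23 and 5.63 to 7.94. Immune markers summed to 16.7 to 19.1 and 23 to 23.5 CPM, and the part of these markers in the results was not tested.

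Treatment with P. umbellatus raised some genes and lowered others, and the balance between them depended on the normalization. Differentially expressed genes were those whose two-sided quasi-likelihood p in edgeR, after Benjamini-Hochberg adjustment, was below 0.05, and every adjusted p given here comes from that test. By this rule 3830 genes, or 28.2% of those tested, were changed, of which 1846 (13.6%) were up-regulated and 1984 (14.6%) down-regulated, while upper quartile normalization gave 2161 and 1644. Levels in the 3 treated libraries did not overlap those of the 3 control libraries for 5666 genes, or 41.7%, with 2744 (20.2%) higher and 2922 (21.5%) lower. Most changes were moderate, with a median absolute log2 fold change of 0.45 over the changed genes, and only 301 up-regulated and 239 down-regulated genes changed by at least 1 on the log2 scale. The median over all genes tested was -0.0099, a value that TMM normalization sets near 0. Leaving out 1 library at a time gave 1539 to 1638 up-regulated and 1640 to 1794 down-regulated genes.

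**Figure D1:**
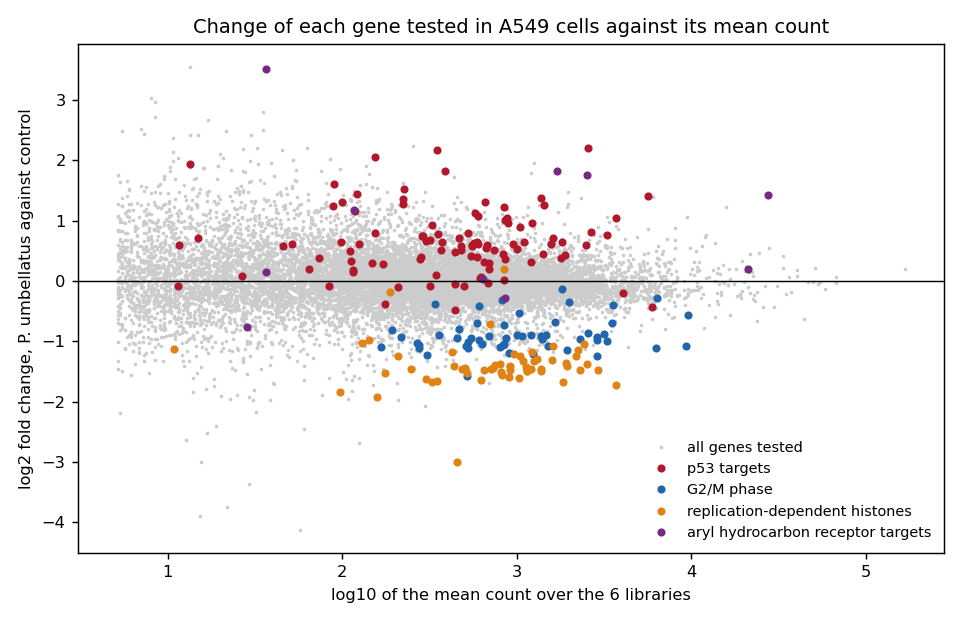
Log2 fold change of each of the 13588 genes between P. umbellatus and control A549 cells (vertical axis) against the log10 of its mean count over the 6 libraries (horizontal axis), with the members of 4 gene lists in colour. The p53 targets lie mostly above 0 with a median of 0.61, and the G2/M phase genes and replication-dependent histone genes below 0 with medians of -0.95 and -1.44.

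The largest rises among well-measured genes combined p53 targets with genes of the cytoskeleton, the membrane and secretion. From here on CPM are TMM-normalized. CDKN1A (chr6:36676460-36687337 in GRCh38, plus strand) stood at 68.3, 75.4 and 92.9 CPM in the control libraries and 359, 365 and 371 CPM with P. umbellatus, a log2 fold change of 2.20 ± 0.08 (SE, 3 libraries a group, adjusted p = 9.4e-10). The treated values lay close together, and the lowest of them was far above the highest control value. ACTA2, which encodes smooth muscle actin, is counted below with the YAP and TGF-beta responsive genes. It had 8.06, 7.85 and 7.03 CPM in the control libraries and 35.7, 35.7 and 39.8 CPM with P. umbellatus (log2 fold change 2.25 ± 0.13, adjusted p = 3.5e-08). TP53INP1, a p53-induced nuclear protein that promotes cell death and autophagy, had 12, 9.82 and 11.1 CPM in the control libraries and 47.1, 52.1 and 51.5 CPM with P. umbellatus (log2 fold change 2.18 ± 0.10, adjusted p = 3.4e-09). SPATA18, which acts in mitochondrial quality control, had 5.92, 3.93 and 5.49 CPM in the control libraries and 21.6, 23.3 and 20.6 CPM with P. umbellatus (log2 fold change 2.06 ± 0.14, adjusted p = 1.4e-07). In all 4 genes the groups were separated by a wide gap. The sorting nexin SNX10 rose as far on average but with a wider spread, from 4.16, 1.28 and 0.674 CPM to 5.91, 11.9 and 11.5 CPM (log2 fold change 2.20 ± 0.51, adjusted p = 0.0047). CPA4, a carboxypeptidase, PLXNB3, a semaphorin receptor, CRISPLD2, a secreted protein, and SORCS2, a sorting receptor, were up-regulated by 2.02, 2.01, 1.91 and 1.86 on the log2 scale. ABCA1, which exports cholesterol from cells, rose from 48.4, 43.6 and 45.1 CPM to 157, 193 and 184 CPM (log2 fold change 1.96 ± 0.10, adjusted p = 1.7e-08).

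Histone genes and genes of DNA handling stood among the largest falls. The histone gene H3C14 went from 59.5, 70.5 and 112 CPM in control libraries to 10.5, 8.65 and 10.8 CPM (log2 fold change -3.00 ± 0.59, adjusted p = 0.0016). SAMD11 had 23.9, 20.8 and 22.4 CPM in the control libraries and 3.13, 3.22 and 3.72 CPM with P. umbellatus (log2 fold change -2.68 ± 0.18, adjusted p = 1.1e-07), with little spread in either group. NR4A1, an orphan nuclear receptor of the immediate early class, fell from 48.8, 46.9 and 51.4 CPM to 9.4, 12.5 and 13.1 CPM (log2 fold change -2.07 ± 0.18, adjusted p = 1.1e-06). DNMT3B, a de novo DNA methyltransferase, had 15.9, 16 and 19.2 CPM in the control libraries and 5.26, 5.06 and 2.11 CPM with P. umbellatus (log2 fold change -1.95 ± 0.32, adjusted p = 0.00032). No treated library reached the lowest control library in any of these 4 genes. The DNA helicase HELB varied among control libraries and fell by 2.45 on the log2 scale, from 8.69, 4.61 and 16.9 CPM to 3.07, 1.47 and 0 CPM (adjusted p = 0.0055). NEB, which encodes the muscle protein nebulin, MYOCD, a coactivator of smooth muscle genes, RHOV, a small GTPase, and the glucose transporter SLC2A3 had log2 fold changes of -1.97, -1.83, -1.88 and -1.69, all of them called.

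Targets of p53 rose as a group. Of 100 targets tested, 72 were up-regulated and 3 down-regulated, against 13.6% and 14.6% over all genes, and their median log2 fold change was 0.61 against -0.0099. Among genes of cell cycle arrest, 9 of 11 rose, with a median of 1.16. BTG2, which slows proliferation, had 14.7, 14.7 and 15 CPM in the control libraries and 52.2, 52.2 and 54.8 CPM with P. umbellatus (log2 fold change 1.82 ± 0.08, adjusted p = 2.9e-09). The replicates of each group agreed closely, and the groups were far apart. SESN1, a stress-induced inhibitor of growth signalling, and CCNG1, a cyclin that feeds back on p53, rose by 1.27 ± 0.11 and 0.43 ± 0.06 on the log2 scale. One arrest gene fell. E2F7, a repressor of E2F targets that p53 can induce, was down-regulated from 48.1, 51.8 and 48.3 CPM to 32.4, 35.7 and 38.8 CPM (log2 fold change -0.48 ± 0.09, adjusted p = 0.0012).

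The feedback genes split. MDM2 (chr12:68808177-68845544, plus strand) had 274, 279.7 and 273 CPM in the control libraries and 709, 754 and 741 CPM with P. umbellatus (log2 fold change 1.41 ± 0.06, adjusted p = 1.9e-09). ZMAT3, a p53-induced RNA-binding protein, had 51.2, 49.5 and 52.4 CPM in the control libraries and 102, 103 and 106 CPM with P. umbellatus (log2 fold change 1.02 ± 0.06). PPM1D, a phosphatase that dephosphorylates p53, did not pass the test, at 15.6, 23.2 and 17.1 CPM in the control libraries and 15.6, 12.1 and 15.5 CPM with P. umbellatus (log2 fold change -0.37 ± 0.31, adjusted p = 0.42). Thus 2 of the 5 feedback genes tested were up-regulated (40%, against 13.6% over all genes).

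Death-related p53 targets were raised almost throughout, with 17 of 20 up-regulated, none down-regulated and a median of 0.63. BBC3, which encodes the BH3-only protein PUMA, had 4.66, 4.12 and 2.6 CPM in the control libraries and 12.3, 11.5 and 12 CPM with P. umbellatus (log2 fold change 1.62 ± 0.18, adjusted p = 1.1e-05). BAX, which permeabilises the mitochondrial outer membrane, had 103, 114 and 123 CPM in the control libraries and 169.6, 180.4 and 174 CPM with P. umbellatus (log2 fold change 0.62 ± 0.06, adjusted p = 3.9e-06). The death receptors moved the same way, with FAS at 0.93 ± 0.17 and TNFRSF10B at 1.05 ± 0.06 on the log2 scale. TNFRSF10B had 202, 233 and 217 CPM in the control libraries and 433, 462 and 459.9 CPM with P. umbellatus. TP53I3, an oxidoreductase, rose by 0.90 ± 0.08. PMAIP1, which encodes the BH3-only protein NOXA, had 12, 10.6 and 14.1 CPM in the control libraries and 14.5, 15.6 and 15 CPM with P. umbellatus, values that did not overlap but did not pass the test (log2 fold change 0.30 ± 0.13, adjusted p = 0.1).

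Genes of repair, metabolism and secretion among the p53 targets were also higher. In repair and nucleotide supply 4 of 5 rose, among them RRM2B, a p53-induced subunit of ribonucleotide reductase, at 0.97 ± 0.07, and the damage sensors DDB2 and XPC at 0.54 ± 0.07 and 0.60 ± 0.13 on the log2 scale. In metabolism 11 of 15 rose, including TIGAR, which lowers glycolytic flux, at 1.05 ± 0.06, and FDXR, a mitochondrial reductase, at 1.23 ± 0.09. In secreted and membrane proteins 11 of 14 rose and 1 fell. GDF15, a secreted stress cytokine, had 67.4, 71.4 and 62.2 CPM in the control libraries and 188, 159 and 174 CPM with P. umbellatus (log2 fold change 1.37 ± 0.09, adjusted p = 7.8e-08), with the groups far apart. NINJ1, which acts in membrane rupture, rose by 0.58 ± 0.11. Of the 30 targets with other functions 18 rose and 1 fell, among them RPS27L, a ribosomal protein paralogue, at 0.72 ± 0.06.

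**Figure D2:**
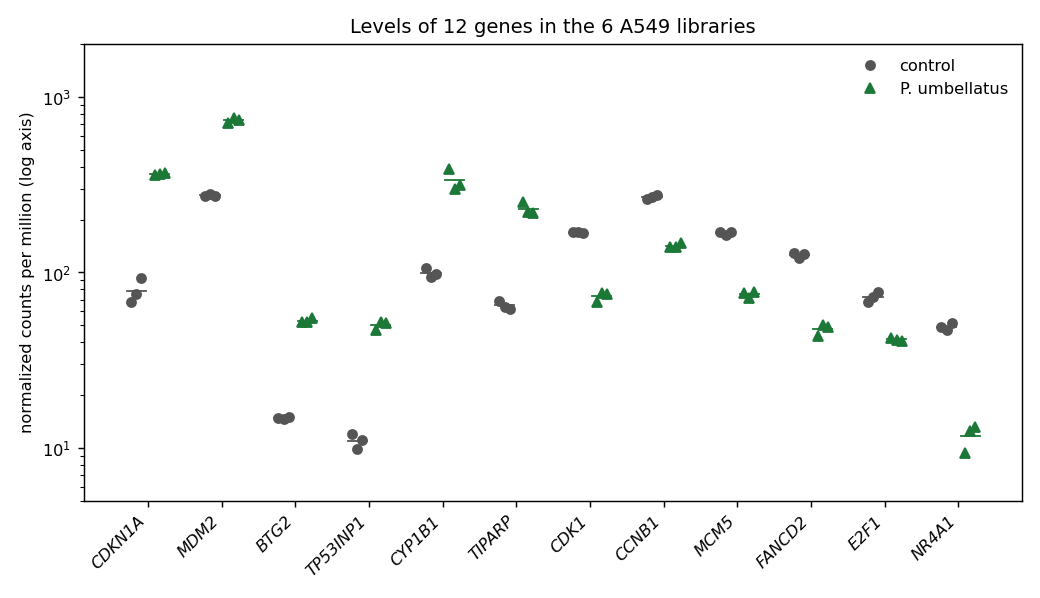
Levels in CPM (log axis) of 12 genes in the 3 control libraries (grey circles) and the 3 libraries with P. umbellatus (green triangles) of A549 cells, where the bars are group means. CDKN1A lies between 68.3 and 92.9 in control and between 359 and 371 with the extract, and CDK1 between 167 and 169.8 in control and between 68.1 and 76.6 with the extract, and in none of the 12 genes do the groups overlap.

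The other side of the response was a fall of the cell cycle genes. Of 54 G2/M phase genes, 52 were down-regulated and none up-regulated, with a median log2 fold change of -0.95, and of 43 S phase genes 40 were down-regulated and none up-regulated, with a median of -0.83. The background share of down-regulated genes was 14.6%. In RNA from whole cultures, fewer cells in a cycle phase and less of these mRNAs per cell cannot be told apart. The promoters of 4 G2/M genes are shown because they carry the CHR and CCAAT box named above. Each run is the 150 bases before the start site, 5′ to 3′ on the strand of the gene, from RefSeq (GRCh38.p14), with the CHR letters TTTGAA and the CCAAT box letters CCAAT, or ATTGG on the other strand, in capitals.
CCNB2 (chr15:59104996-59105145, plus strand): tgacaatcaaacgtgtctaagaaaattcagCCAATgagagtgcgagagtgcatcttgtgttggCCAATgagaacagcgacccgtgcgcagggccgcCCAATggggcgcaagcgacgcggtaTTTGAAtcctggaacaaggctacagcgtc
PLK1 (chr16:23678739-23678888, plus strand): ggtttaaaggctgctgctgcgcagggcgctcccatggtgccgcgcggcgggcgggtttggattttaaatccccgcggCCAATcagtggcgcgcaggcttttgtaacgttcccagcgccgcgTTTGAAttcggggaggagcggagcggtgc
CDC20 (chr1:43358831-43358980, plus strand): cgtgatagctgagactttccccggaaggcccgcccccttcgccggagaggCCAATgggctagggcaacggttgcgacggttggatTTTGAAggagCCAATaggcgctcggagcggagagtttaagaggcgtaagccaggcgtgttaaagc
MKI67 (chr10:128126424-128126573, minus strand): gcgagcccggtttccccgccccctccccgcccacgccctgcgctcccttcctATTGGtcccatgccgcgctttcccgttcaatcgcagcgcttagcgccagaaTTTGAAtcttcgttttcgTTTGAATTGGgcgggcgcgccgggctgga
The CHR began 29 bases before the start in CCNB2 and PLK1 and 65 bases before it in CDC20. In MKI67 it occurred at 47 and at 29 bases before the start, where the second match runs into an ATTGG.

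Those 4 genes were all lower with the extract. CCNB2, a mitotic cyclin, had 117, 111 and 107 CPM in the control libraries and 47.8, 58.6 and 56.3 CPM with P. umbellatus (log2 fold change -1.04 ± 0.08, adjusted p = 2.3e-07). PLK1, a kinase that drives mitotic entry and spindle assembly, had 257, 243 and 268 CPM in the control libraries and 115, 116 and 127 CPM with P. umbellatus (log2 fold change -1.10 ± 0.07, adjusted p = 9.4e-08). MKI67, whose protein Ki-67 coats mitotic chromosomes and marks proliferating cells, had 851, 834 and 818 CPM in the control libraries and 421, 360.1 and 379.98 CPM with P. umbellatus (log2 fold change -1.11 ± 0.08, adjusted p = 2.3e-07). CDC20, which activates the anaphase-promoting complex (APC/C), fell by 0.89 on the log2 scale. In each of the 4 genes every treated library lay below every control library. The strongest fall in the G2/M list was that of TACC3, a spindle protein, from 60.9, 76.5 and 94.4 CPM to 20.1, 24 and 34.8 CPM (log2 fold change -1.58 ± 0.33, adjusted p = 0.0023), with more spread than the others.

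Mitotic regulators fell in each role. All 7 mitotic cyclins and CDK1 were down-regulated with a median of -1.04. CDK1, the kinase of mitotic entry, had 169.7, 169.8 and 167 CPM in the control libraries and 68.1, 76.6 and 75.7 CPM with P. umbellatus (log2 fold change -1.20 ± 0.08, adjusted p = 6.1e-08). CCNB1, its main cyclin, had 261, 268 and 277 CPM in the control libraries and 139, 139 and 146 CPM with P. umbellatus (log2 fold change -0.92 ± 0.05), and CCNA2 fell by 1.14. All 13 mitotic kinases tested were down-regulated, also with a median of -1.04, including AURKA and AURKB at -0.96 ± 0.06 and -1.05 ± 0.14 on the log2 scale. Of 15 phosphatases, APC/C subunits and cohesin release factors 11 fell, led by the spindle checkpoint protein MAD2L1 at -1.33 ± 0.11, and UBE2C, the ubiquitin-conjugating enzyme of the APC/C, stood at -1.06 ± 0.10. Of 37 kinetochore and centromere genes, 36 were down-regulated, among them CENPM at -1.29 ± 0.17 and CENPA, the centromeric histone variant, at -0.90 ± 0.17. No gene of these lists was up-regulated.

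Replication genes fell to a like extent. Of 53 genes of origins and forks, 50 were down-regulated and none up-regulated, with a median of -0.87. E2F sites stand in several of their promoters and in that of E2F1 itself, of which 4 are shown, again 150 bases before the start from RefSeq (GRCh38.p14). The E2F letters searched were TTTGGCGC and TTTCCCGC on either strand, and E2F and CCAAT matches are in capitals.
E2F1 (chr20:33686386-33686535, minus strand): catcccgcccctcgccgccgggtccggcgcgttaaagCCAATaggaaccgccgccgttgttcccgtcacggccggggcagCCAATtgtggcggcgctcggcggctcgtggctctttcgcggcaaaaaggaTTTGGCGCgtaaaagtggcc
CDT1 (chr16:88803639-88803788, plus strand): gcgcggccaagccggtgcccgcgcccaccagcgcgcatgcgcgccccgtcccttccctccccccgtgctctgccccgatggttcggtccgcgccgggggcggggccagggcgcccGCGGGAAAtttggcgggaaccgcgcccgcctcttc
PCNA (chr20:5126623-5126772, minus strand): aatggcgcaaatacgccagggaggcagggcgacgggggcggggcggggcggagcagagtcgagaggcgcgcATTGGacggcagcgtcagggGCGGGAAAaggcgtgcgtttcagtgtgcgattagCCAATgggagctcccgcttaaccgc
GINS2 (chr16:85688955-85689104, minus strand): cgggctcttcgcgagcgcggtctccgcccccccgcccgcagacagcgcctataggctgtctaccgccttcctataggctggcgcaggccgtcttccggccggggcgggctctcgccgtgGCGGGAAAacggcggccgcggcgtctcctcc
The E2F letters began 20 bases before the start in E2F1, 35 in CDT1, 59 in PCNA and 31 in GINS2.

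Origin licensing, the loading of the MCM helicase before S phase, was lower in 14 of 15 genes. MCM5, a subunit of that helicase, had 169, 164 and 169.6 CPM in the control libraries and 76.8, 71.2 and 77.4 CPM with P. umbellatus (log2 fold change -1.16 ± 0.07, adjusted p = 3.2e-08). MCM2, the loader CDC6 and its partner CDT1 fell by 0.95, 1.01 and 1.06. Origin firing was lower in 10 of 11 genes, with the largest fall in GINS2, a part of the active helicase, from 62, 58.2 and 62 CPM to 22.4, 26.4 and 24.9 CPM (log2 fold change -1.30 ± 0.12, adjusted p = 1.4e-06). CDC45 and MCM10 fell by 1.14 and 1.12. At the fork itself 26 of 27 genes were lower. PCNA, the sliding clamp of the polymerases, fell less than most, from 389.97, 378 and 359.6 CPM to 255, 264 and 269 CPM (log2 fold change -0.52 ± 0.05, adjusted p = 1.2e-06), and it is also a p53 target.

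The factors that control these genes changed unevenly. Of 21 E2F, DP, pocket protein, MuvB and related factors, 11 were down-regulated (52.4%, against 14.6% over all genes) and none up-regulated. E2F1 had 67.8, 72.7 and 77.1 CPM in the control libraries and 42.5, 41.2 and 40.9 CPM with P. umbellatus (log2 fold change -0.80 ± 0.09, adjusted p = 1.1e-05). E2F2, another activator, and E2F8, a repressor of the same sites, fell further, to log2 fold changes of -1.49 ± 0.16 and -1.44 ± 0.16. RBL1, which encodes the pocket protein p107, fell by 0.83, and the E2F partner TFDP1 by 0.50. MYBL2 and FOXM1, which join MuvB to activate mitotic genes, had 167, 175 and 185 CPM in the control libraries and 76.9, 79.3 and 82.7 CPM with P. umbellatus for the former and a log2 fold change of -0.97 ± 0.07 for the latter. The study lists factors for the genes that its herbs lowered in A549 cells, and 10 of these, some already counted above, were tested. PRMT3 among them is listed only for the other herbs, and ZNF695, which is listed for P. umbellatus, was not included. The lists come from this series, so their direction is not independent evidence. Of the 10, 8 fell, among them ZNF367 at -0.86 ± 0.14 and PA2G4 at -0.32 ± 0.05, and 1, the chromatin protein HMGA1, rose by 0.18 ± 0.05, a call lost when any of 4 single libraries was left out (control replicates 1 and 2, treated replicates 1 and 3, adjusted p up to 0.11).

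Genes of the G1 phase went both ways. CCNE1, which drives entry into S phase, was up-regulated from 20.3, 21.8 and 24.3 CPM to 33.7, 30.4 and 37.1 CPM (log2 fold change 0.60 ± 0.11, adjusted p = 0.001), and CCND1, which answers growth signals, from 525, 563 and 572 CPM to 644, 662 and 665 CPM (0.25 ± 0.04). CCND3 fell by 0.42, and CCNE2 had 13.9, 14.4 and 11.2 CPM in the control libraries and 8.92, 10.2 and 10.8 CPM with P. umbellatus, which did not pass the test (log2 fold change -0.40 ± 0.16, adjusted p = 0.081). Of 8 G1 cyclins and kinases, 2 rose (25%) and 4 fell (50%), against 13.6% and 14.6% over all genes, with a median of -0.38. Of 5 inhibitors, 3 fell, among them CDKN3 at -0.96 ± 0.14, whose expression peaks in mitosis, and CDKN1A rose.

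Replication-dependent histone genes had the lowest median of the cell cycle lists. These mRNAs end in a stem-loop in place of a poly(A) tail, are made in S phase, and are captured in libraries made, like these, from ribosome-depleted total RNA. Of 56 tested, 53 were down-regulated and none up-regulated, with a median log2 fold change of -1.44. The fall covered all 4 linker genes, 13 of 14 H2A genes, 14 of 15 H2B genes, 10 of 11 H3 genes and all 12 H4 genes. H2BC3 had 26.2, 26.9 and 22.6 CPM in the control libraries and 7.45, 4.88 and 7.07 CPM with P. umbellatus (log2 fold change -1.93 ± 0.20, adjusted p = 4.9e-06), and H2AC16 had 11.5, 14.5 and 18.6 CPM in the control libraries and 5.2, 3.5 and 3.1 CPM with P. umbellatus (-1.84 ± 0.25). H2AC18 had 595, 600.1 and 457 CPM in the control libraries and 236, 235 and 17.6 CPM with P. umbellatus, where 1 treated library was far below the other two (log2 fold change -1.72 ± 0.49, adjusted p = 0.017), and its call was lost when only the 6 libraries were fitted (adjusted p = 0.055). Near-identical histone copies share reads, so the split between single genes is uncertain.

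Supply, repair and chromatin genes of dividing cells were lower as well. Of 35 genes of nucleotide and one-carbon metabolism 23 fell (65.7%) and 1 rose (2.86%), against 14.6% and 13.6% over all genes. TK1, which salvages thymidine, and TYMS, which makes thymidylate, fell by 0.86 and 0.39, and CAD, which starts pyrimidine synthesis, by 0.31. RRM2, the S phase subunit of ribonucleotide reductase, had 165, 83.1 and 122 CPM in the control libraries and 84.3, 101 and 119 CPM with P. umbellatus, with overlapping groups and no call (log2 fold change -0.29 ± 0.43, adjusted p = 0.67). Of 32 genes of homologous recombination and the Fanconi pathway 28 fell and none rose. FANCD2, which is loaded at crosslinks, had 129, 120.4 and 128 CPM in the control libraries and 43.7, 50 and 49.1 CPM with P. umbellatus (log2 fold change -1.40 ± 0.10, adjusted p = 2.3e-07), and BRCA1 stood at -1.01 ± 0.10 on the log2 scale. Of 29 genes of chromatin silencing and the nuclear lamina 22 fell and 2 rose. The maintenance methyltransferase DNMT1, its recruiter UHRF1, the H3K27 methyltransferase EZH2 and lamin B1 (LMNB1) fell by 0.94, 0.83, 1.06 and 0.94, while the chromatin protein HMGA2 rose by 0.44 ± 0.09.

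**Figure D3:**
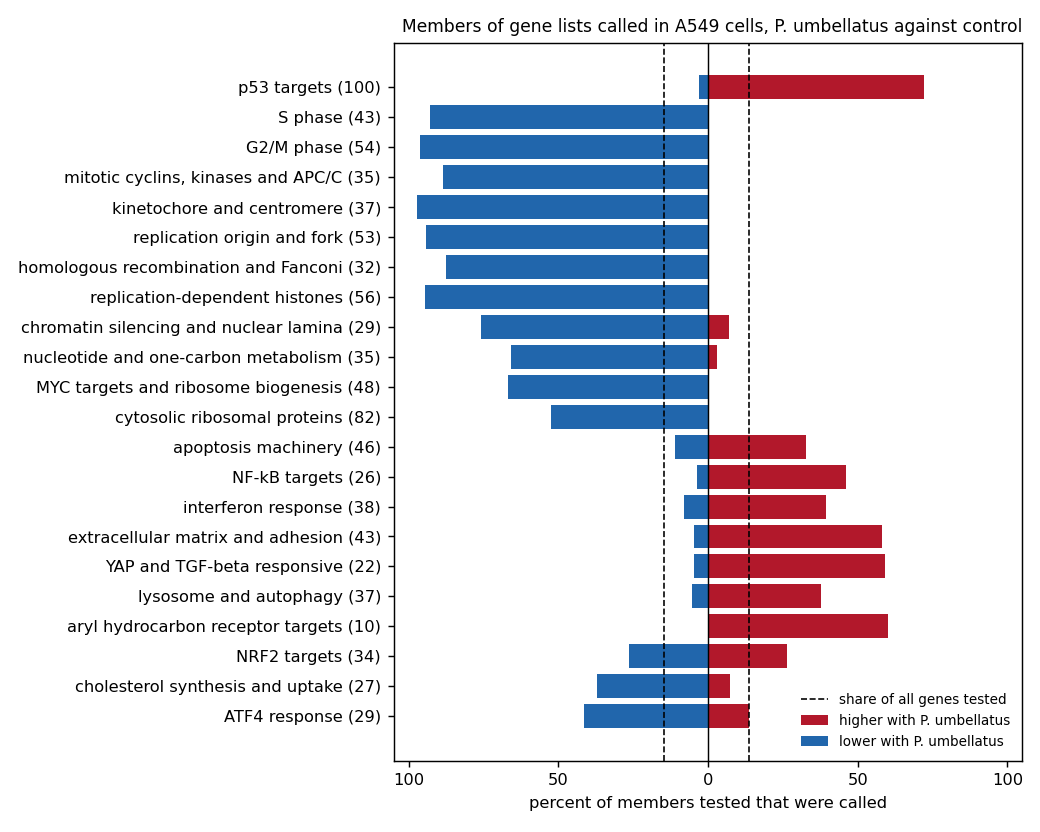
Percent of the tested members of 22 gene lists that were down-regulated (blue, to the left) and up-regulated (red, to the right) by P. umbellatus in A549 cells, with the number tested in parentheses, where dashed lines give the shares over all 13588 genes, 14.6% and 13.6%. The bars from S phase to the histones extend to between 87.5% and 97.3% on the left with no bar on the right, and the p53 targets reach 72.0% on the right.

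The motifs were counted in all promoter windows, from 250 bases before to 50 after the start, which RefSeq gave for 11018 of the 13588 genes. The CHR letters stood in 10.1% of these windows, in 16.8% of those of down-regulated genes and in 7.02% of those of up-regulated genes. Among G2/M phase genes 31 of 45 windows held them (68.9%), and among S phase genes 1 of 33 (3.03%). The E2F letters showed the opposite split, with 14 of 33 S phase windows (42.4%) and 2 of 45 G2/M windows (4.44%), against 3.55% of all windows. The CCAAT box stood in 36.7% of all windows, in 68.9% of G2/M windows, 69.7% of S phase windows and 84.3% of histone windows. Read the other way, 24.8% of the 1110 genes with CHR letters were down-regulated, 30.9% of the 391 with E2F letters and 33.5% of the 472 with both CHR letters and a CCAAT box, compared with 13.7% of genes without CHR letters and 14.3% of those without E2F letters. A match of letters is a description of the window and does not show that a factor binds there.

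Of 46 genes of the apoptosis machinery, some of them p53 targets, 15 rose (32.6%, against 13.6% over all genes) and 5 fell (10.9%, against 14.6%), with a median of 0.18. Death receptors and their ligands rose in 6 of 8 genes, while of 17 caspases and adaptors 2 rose (11.8%) and 3 fell (17.6%), shares near those over all genes. The survival proteins BCL2L1 and MCL1 were also up-regulated. BCL2L1 had 223, 241 and 236 CPM in the control libraries and 355, 349 and 334 CPM with P. umbellatus (log2 fold change 0.57 ± 0.04, adjusted p = 2.7e-07), and MCL1 rose by 0.43 ± 0.06. BIRC5, which encodes survivin and also acts in mitosis, fell from 200.5, 199 and 203 CPM to 90.9, 93.4 and 101 CPM (log2 fold change -1.08 ± 0.07, adjusted p = 6.7e-08). The initiator caspase CASP8 was not called, with a log2 fold change of 0.15 ± 0.15 (adjusted p = 0.53).

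NF-kB targets and ligands of the EGF receptor family rose more often than they fell, while immediate early genes went both ways. Of 26 NF-kB targets 12 rose and 1 fell (46.2% and 3.85%, against 13.6% and 14.6% over all genes), with a median of 0.54. NFKBIA, the inhibitor that closes the NF-kB loop, had 83.3, 80 and 77.3 CPM in the control libraries and 150.4, 121 and 127 CPM with P. umbellatus (log2 fold change 0.73 ± 0.09, adjusted p = 2.1e-05), whereas PTGS2, the inducible cyclooxygenase, fell from 49, 58.8 and 49.3 CPM to 37.3, 35.9 and 38.9 CPM (-0.49 ± 0.11). The chemokine CXCL8 was barely detected, at 0.378, 2.06 and 0.866 CPM in the control libraries and 4.37, 2.67 and 4.96 CPM with P. umbellatus (log2 fold change 1.65 ± 0.39, adjusted p = 0.0053). Of 31 immediate early and ERK feedback genes 12 rose (38.7%) and 6 fell (19.4%), the falls being near the share over all genes. FOSL1, an AP-1 subunit, had 41.1, 49.9 and 46.9 CPM in the control libraries and 111, 89.4 and 97.8 CPM with P. umbellatus (log2 fold change 1.11 ± 0.13, adjusted p = 1.9e-05), and JUN, ATF3 and the ERK phosphatase DUSP6 rose by 0.93 ± 0.17, 1.67 ± 0.34 and 1.20 ± 0.15 on the log2 scale. EGR1 was low in both groups, at 1.39, 1.28 and 1.73 CPM in the control libraries and 2.48, 1.38 and 3.35 CPM with P. umbellatus, with overlap and no call. Of 10 ligands of the EGF family 5 rose and none fell, led by TGFA from 31.2, 38 and 31.3 CPM to 82.1, 80.9 and 87 CPM (log2 fold change 1.31 ± 0.09, adjusted p = 1.0e-07), while the receptor ERBB3 fell from 27.5, 23.9 and 22.3 CPM to 10.9, 7.63 and 7.44 CPM (-1.46 ± 0.18).

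Targets of the aryl hydrocarbon receptor, a ligand-activated factor that senses planar aromatic compounds, were raised, some by large factors. Of 10 tested, 6 rose (60%, against 13.6% over all genes) and none fell, though 2 of the uncalled ones had a log2 fold change below 0. CYP1B1, a monooxygenase, had 106, 94.7 and 97.6 CPM in the control libraries and 389.5, 300.4 and 313 CPM with P. umbellatus (log2 fold change 1.75 ± 0.14, adjusted p = 4.3e-07). TIPARP, an ADP-ribosyltransferase that feeds back on the receptor, had 68.7, 64 and 62.3 CPM in the control libraries and 252, 221 and 218 CPM with P. umbellatus (log2 fold change 1.83 ± 0.11, adjusted p = 5.5e-08), and the receptor's repressor AHRR had 6.68, 5.5 and 6.64 CPM in the control libraries and 16.8, 10.6 and 15.6 CPM with P. umbellatus (1.17 ± 0.18). CYP1A1, the best known target (chr15:74719542-74725536, minus strand), was scarce, with at most 5 counts in a control library, at 0.252, 0.491 and 0.193 CPM there and 6.32, 6.25 and 4.46 CPM with the extract (log2 fold change 3.52 ± 0.43, adjusted p = 2.7e-05). ALDH3A1, an aldehyde dehydrogenase abundant in A549 cells, went from 1322, 1310.1 and 1311 CPM to 3687, 3441 and 3474 CPM (log2 fold change 1.43 ± 0.07, adjusted p = 3.9e-09). Control replicates of ALDH3A1 were nearly equal, and the treated ones lay well above. The quinone reductase NQO1, which NRF2 also drives, rose by 0.20 ± 0.03.

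Targets of NRF2, the factor of the oxidative stress response that is constitutively active in A549 cells, went both ways. Of 34 tested, ALDH3A1 and NQO1 included, 9 rose and 9 fell (26.5% each, against 13.6% and 14.6% over all genes), with a median of -0.078, or 0.021 after correction for GC content and length. HMOX1, heme oxygenase, rose from 202, 216 and 210.4 CPM to 299, 268 and 278 CPM (log2 fold change 0.42 ± 0.06, adjusted p = 0.0001), and thioredoxin reductase TXNRD1 by 0.20 ± 0.03. GCLM, of glutathione synthesis, and AKR1B10, an aldo-keto reductase, did not pass the test, at 0.07 ± 0.04 and 0.08 ± 0.07.

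Genes of lipid and amino acid supply fell more often than they rose. Of 27 genes of cholesterol synthesis and uptake 10 fell and 2 rose (37% and 7.41%, against 14.6% and 13.6% over all genes). SQLE, the squalene epoxidase of the synthesis, had a log2 fold change of -0.07 ± 0.06 and was not called, while TM7SF2, a sterol reductase, rose by 1.07 ± 0.20. Fatty acid synthase FASN and the desaturase SCD fell by 0.40 and 0.56. Of 29 genes of the ATF4 response, which supplies amino acids under stress, 12 fell (41.4%) and 4 rose (13.8%). ATF4 itself stood at -0.37 ± 0.06 and asparagine synthetase ASNS at -0.36 ± 0.08. SESN2, which p53 also induces, rose by 1.16 ± 0.14, and the cystine transporter SLC7A11 by 0.21 ± 0.05. The ER chaperone HSPA5 rose by 0.20 ± 0.04, and the cytosolic chaperone HSPA1A, which has a near-identical copy, fell by 0.36.

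More genes of the matrix, of adhesion and of the interferon response rose than fell. Of 43 genes of matrix and adhesion 25 rose and 2 fell (58.1% and 4.65%, against 13.6% and 14.6% over all genes). Their median was 0.40. E-cadherin (CDH1), which joins epithelial cells, fell from 95.4, 87.7 and 84.2 CPM to 51.5, 60.9 and 45.6 CPM (log2 fold change -0.75 ± 0.12, adjusted p = 0.00031), and fibronectin (FN1) was not called. Of 22 YAP and TGF-beta responsive genes 13 rose and 1 fell, among them CCN1 at 0.77 ± 0.10 on the log2 scale and CCN2, from 18.9, 14.1 and 14.2 CPM to 32.3, 29.3 and 33.5 CPM. Of 38 interferon response genes 15 rose (39.5%) and 3 fell (7.89%). Among them 6 of 8 genes of antigen presentation rose and none fell, with a median of 0.79. Of 24 effectors 6 rose (25%) and 3 fell (12.5%, near the share over all genes). OAS1, an antiviral synthetase, fell from 56.2, 52.6 and 57.1 CPM to 20.9, 24.8 and 21.6 CPM (log2 fold change -1.29 ± 0.13, adjusted p = 3.1e-06), and ISG15 stayed under 5 CPM in every library and was not called.

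Growth-related genes of protein synthesis fell by small amounts. Of 48 MYC targets and genes of ribosome biogenesis 32 were down-regulated (66.7%, against 14.6% over all genes) and none up-regulated, with a median of -0.30. Nucleolin (NCL) had 469.9, 486 and 433 CPM in the control libraries and 385, 260.04 and 265 CPM with P. umbellatus (log2 fold change -0.60 ± 0.14, adjusted p = 0.004), and ornithine decarboxylase ODC1 fell by 0.28. MYC itself had 213, 215 and 235 CPM in the control libraries and 189, 186 and 189.7 CPM with P. umbellatus (log2 fold change -0.23 ± 0.07, adjusted p = 0.022), a call lost without control replicate 3 or either of treated replicates 2 and 3 and under upper quartile normalization, with an adjusted p of up to 0.098. Of 82 cytosolic ribosomal protein genes 43 fell (52.4%) and none rose, with a median of -0.23. The count and median became 24 and -0.12 when each library was corrected for GC content and length. Without treated replicate 2 the count was 25. Of the 13 genes encoded in mitochondria 1 rose (7.69%) and none fell, below the 13.6% and 14.6% over all genes. None rose without control replicate 2 or 3, and without treated replicate 1 none rose and 3 fell, with a median of -0.30.

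P. umbellatus and P. chinensis were then compared directly, which asks where the herbs differ without using the control libraries as a reference. Of the 13588 genes 393 (2.89%) differed, 279 (2.05%) higher with P. umbellatus and 114 (0.839%) lower, and 2159 genes had an unadjusted p below 0.05. Cell cycle genes made up part of the first group, with 17 of 43 S phase genes, 19 of 54 G2/M genes and 26 of 56 histone genes higher with P. umbellatus and none lower. Of 100 p53 targets, 17 were lower with P. umbellatus and 1 higher. In this comparison H1-3, a linker histone, had 90.8, 80.6 and 88.1 CPM with P. umbellatus and 54, 58.5 and 54.7 CPM with P. chinensis (log2 difference 0.63 ± 0.07, adjusted p = 0.0012). MDM2 was lower with P. umbellatus, at 709, 754 and 741 CPM against 1089, 1037 and 1135 CPM (log2 difference -0.57 ± 0.06, adjusted p = 0.00053), and so was BTG2, at 52.2, 52.2 and 54.8 CPM against 79.7, 71.8 and 82 CPM (-0.55 ± 0.07). These values place both genes above control with either herb. Leaving out any of the 6 libraries lowered both counts. Without P. chinensis replicates 1, 2 and 3 in turn, 181, 230 and 95 genes were higher and 55, 71 and 26 lower. Without P. umbellatus replicates 1, 2 and 3 in turn, 231, 155 and 102 were higher and 56, 43 and 32 lower.

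The gene of lowest p between P. umbellatus and P. chinensis was MUC5AC, a secreted gel-forming mucin of airways. It stood at 323, 339 and 321 CPM in control cells, 261, 233 and 244 CPM with P. umbellatus, 121, 130.2 and 124 CPM with P. chinensis and 140.2, 142 and 155 CPM with B. chinense. The level with P. umbellatus was below control in each library and above both other herbs in each library (log2 difference 0.97 ± 0.06 from P. chinensis, adjusted p = 1.0e-06, and 0.76 ± 0.06 from B. chinense, adjusted p = 2.8e-05). The immediate early genes EGR1 and FOSB went the other way. EGR1 had 2.48, 1.38 and 3.35 CPM with P. umbellatus and 14.9, 15 and 29.9 CPM with P. chinensis (log2 difference -2.97 ± 0.32, adjusted p = 0.00091), and FOSB 2.78, 3.31 and 3.1 CPM against 17.3, 15.3 and 35.8 CPM (-2.83 ± 0.35). SLC7A5, a transporter of large neutral amino acids, and the zinc finger gene ZNF469 were higher with P. umbellatus by 0.45 ± 0.05 and 0.74 ± 0.08.

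P. umbellatus and B. chinense were hardly told apart by the test. In edgeR 7 genes (0.0515%) differed, 4 higher (0.0294%) and 3 lower (0.0221%) with P. umbellatus, 982 had an unadjusted p below 0.05, and DESeq2 called 61 higher and 10 lower. That so few genes passed does not show that both herbs act alike, since the median standard error of a log2 difference was 0.13. The 3 lower genes were ID1, ID2 and ID3, which encode inhibitors of basic helix-loop-helix factors and are targets of BMP signalling. ID1 had 163, 141 and 153 CPM with P. umbellatus and 244, 239 and 232 CPM with B. chinense (log2 difference -0.64 ± 0.05, adjusted p = 5.8e-05). ID2 had 82, 65.6 and 84.9 CPM against 123, 122 and 139.7 CPM (-0.72 ± 0.09), and ID3 51, 46.3 and 50.2 CPM against 76.3, 80 and 79.4 CPM (-0.67 ± 0.09). The groups were apart in all 3 genes, and the call of ID3 was lost without treated replicate 2 (adjusted p = 0.053). Beside MUC5AC, the chemokine CXCL5 (0.51 ± 0.06), the integrin chain ITGA3 (0.30 ± 0.04) and the adhesion protein CLMP (0.55 ± 0.09) were higher with P. umbellatus, the last pair losing their calls in 6 and 9 of 15 alternatives.

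Set side by side, each herb against the same control libraries gave list medians that can be read only as 3 descriptions, because they share those controls. For p53 targets the medians were 0.61 with P. umbellatus, 0.81 with P. chinensis and 0.71 with B. chinense. For G2/M phase genes they were -0.95, -1.26 and -0.96, and for replication-dependent histones -1.44, -1.93 and -1.35. CDKN1A had log2 fold changes of 2.20, 2.54 and 2.42 in the same order. CYP1B1 had 1.75, 1.20 and 1.90, and ID3 had -0.66, 0.03 and 0.01.

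**Figure D4:**
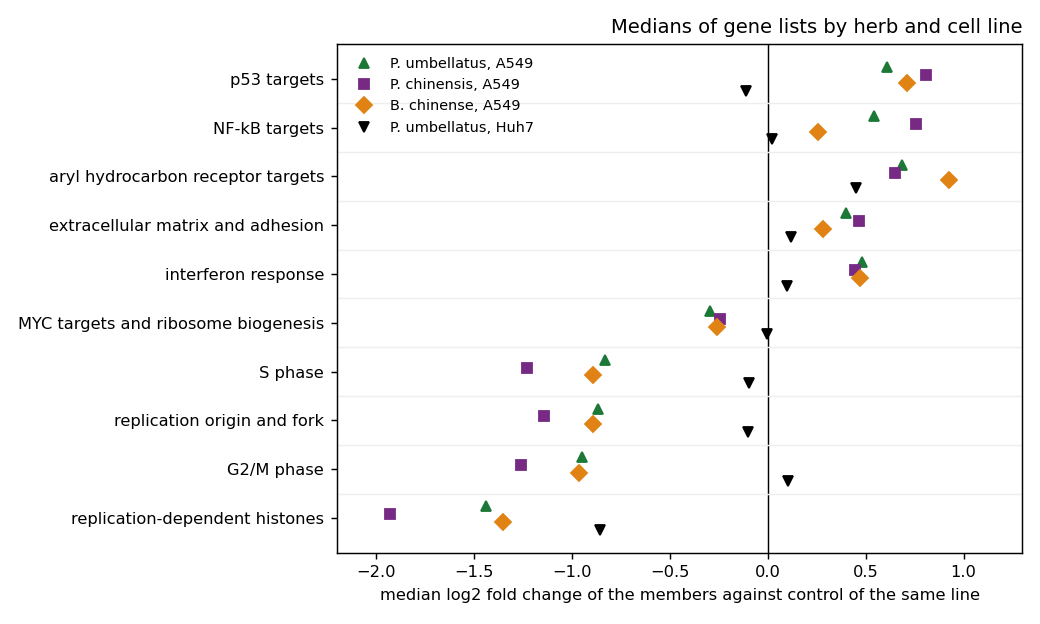
Median log2 fold change of the members of 10 gene lists against control of the same line (horizontal axis) for the 3 herbs in A549 cells and for P. umbellatus in the Huh7 line. For the S phase genes the A549 medians are -0.83, -1.23 and -0.89 and the Huh7 median is -0.093, and the 3 herbs share their A549 control libraries.

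The response to P. umbellatus differed between the lines. Among 12776 genes tested in both lines, the interaction is the A549 response minus the Huh7 response. It passed the test above 0 for 2389 genes (18.7%) and below 0 for 2106 (16.5%), and the counts that follow are of genes that passed. The balance turned after correction for GC content and length, with 1457 above and 1727 below, and in a fit of only the groups compared, with 1482 and 1572. The p53 targets accounted for 58 genes above and 3 below of 94, and their median response in Huh7 cells was -0.11. According to the study, A549 cells carry wild-type p53 and Huh7 cells mutant p53, and whether this sets the responses apart was not tested. The G2/M list had 47 genes below and 2 above of 54, the S phase list 34 below and none above of 43, and their medians in Huh7 cells were 0.11 and -0.093. The histone genes were lower in Huh7 cells too, with a median of -0.86 there. Of 55 histone genes 22 passed below 0 and 1 above, while 47 and 8 had values below and above 0 whatever the test gave. Depth in Huh7 cells was 7182444 to 10328734 counts with P. umbellatus and 16455709 to 24345541 in control. Leaving out P. umbellatus replicates 1, 2 and 3 of Huh7 cells in turn gave 2328, 2050 and 2754 genes above and 2461, 2015 and 2736 below.

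Single genes show the contrast. In CPM normalized over all 24 libraries, TP53INP1 had 12.4, 10.2 and 11.4 in A549 control cells and 50.6, 56.1 and 54.9 with P. umbellatus, and 28.3, 25.2 and 30.6 and 32.1, 29.8 and 27.8 in Huh7 cells (interaction 2.15 ± 0.14, adjusted p = 4.9e-09). The Huh7 groups overlapped, and those of A549 cells were far apart. HMMR, a mitotic spindle protein, fell in A549 cells from 132, 132 and 119 CPM to 55.5, 59.4 and 58.9 CPM, while Huh7 cells had 47.5, 50.8 and 49.8 CPM and then 63.3, 76.4 and 61.5 CPM (interaction -1.58 ± 0.11, adjusted p = 7.6e-09). BUB1B, of the spindle checkpoint, and DEPDC1, a mitotic protein, had interactions of -1.37 ± 0.10 and -1.50 ± 0.11. Of the aryl hydrocarbon receptor targets named above, CYP1B1, CYP1A1 and TIPARP rose in Huh7 cells too. Their log2 fold changes there were 2.32 (adjusted p = 1.4e-05), 1.46 (adjusted p = 1.4e-05) and 0.96 (adjusted p = 0.00015), against 1.75, 3.52 and 1.83 in the A549 line. AHRR and ALDH3A1 were not called in Huh7 cells, at -0.17 (adjusted p = 0.86) and -0.31 (adjusted p = 0.63). NQO1 was lower there, at -0.16 (adjusted p = 0.027). A call in only 1 line does not show that the lines differ. By the interaction test, 4 of the 10 receptor targets passed above 0 and 2 below, against 18.7% and 16.5% over all genes.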

How the data were processed

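RNA from A549 and Huh7 cells was sequenced as ribosome-depleted, stranded total RNA. The authors checked reads with FastQC and deposited estimated counts per gene, made with kallisto against the human Ensembl transcriptome (GRCh38.p13), so reads shared by near-identical genes were divided by a model. How transcripts were summed to genes is not given in the sources used here. Groups came from the sample labels, and no per-sample column was left unmapped.

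The estimated counts were used as deposited. Genes with a mean above 5 counts in the 6 libraries compared were kept, and the 12 A549 libraries were fitted with 1 coefficient per group by edgeR 4.0.16 (R 4.3.3, TMM normalization, quasi-likelihood test, prior count 2, Benjamini-Hochberg adjustment, threshold 0.05). The standard error (SE) of a log2 fold change was its size divided by the root of the F statistic. The difference between lines was the interaction in a fit of all 24 libraries. Counts for P. umbellatus against control were also simulated, with a log2 change of 1 given to 200 of 13588 genes. There edgeR found 186 with 13 false calls. This share does not carry over to the data, where 3830 genes were called with a median absolute log2 fold change of 0.45. How many smaller changes, or changes in genes of low count, edgeR would find was not tested. Depth was 8056191 to 17175624 counts in the 6 libraries.

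The genes compared and the gene lists were chosen with earlier results of these data known. Named genes were the 12 largest rises and falls among called, non-overlapping genes whose mean reached 50 counts, preset core genes of each list, up to 5 genes per direction of lowest p in the other comparisons, the called member with the highest and lowest change in each list, and the factors the study lists, of which some were left out for length and some are not reported here. Alternatives were RLE and upper quartile normalization, DESeq2 1.42.0, no filter or a mean above 50 counts, only the groups compared, a replicate block, a log2 fold change of at least 1, thinning of the deepest library and leaving out each library. A correction for GC content and length was added after seeing the data. Gene positions are from GENCODE (GRCh38), and promoters are from RefSeq (GRCh38.p14).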

Additional observations from a re-analysis of the deposited data

Results flagged for a closer look

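The response to P. umbellatus was compared between A549 and Huh7 cells by the interaction test of edgeR, and it differed for 2389 genes above 0 and 2106 genes below 0 in A549 minus Huh7 cells. These became 1457 and 1727 after correction for GC content and length, and 1482 and 1572 with only the groups compared. In each direction, the 5 genes with the smallest p are given, since their difference itself passed the test. MXD4, a MAX-binding repressor, differed by 2.73 ± 0.21 on the log2 scale, rising in A549 cells from 16.6, 16.7 and 20.9 CPM to 67.7, 63.6 and 54.9 CPM and lying in Huh7 cells at 82.5, 77.5 and 81.5 CPM in control and 41.6, 29.2 and 52.3 CPM with the extract. TP53INP1 and TNFRSF10B, both p53 targets, differed by 2.15 ± 0.14 and 1.34 ± 0.11, and the cholesterol exporter ABCA1 and the integrin chain ITGA2 by 1.79 ± 0.12 and 1.36 ± 0.09. MUC13, a transmembrane mucin, differed by -2.25 ± 0.15, at 24.9, 23.2 and 23.5 CPM and 17.7, 18.7 and 17.9 CPM in A549 cells and 4.14, 4.33 and 4.06 CPM and 14.5, 15.5 and 16.4 CPM in Huh7 cells. FGA, which encodes a fibrinogen chain of hepatocytes, differed by -1.96 ± 0.14, and the mitotic genes HMMR, DEPDC1 and BUB1B by -1.58 ± 0.11, -1.50 ± 0.11 and -1.37 ± 0.10. Groups of 3 libraries are too small for the test of a single outlying library, so none was run. What sets the lines apart was not tested.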

How the results depend on the processing

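The counts of P. umbellatus against control in A549 cells kept their size under RLE and upper quartile normalization, DESeq2, both other filters, a fit of the 6 libraries, thinning of the deepest library and the correction for GC content and length, and fell to 301 up-regulated and 239 down-regulated genes when an absolute log2 fold change of at least 1 was required. Leaving out 1 library gave 1539 to 1638 and 1640 to 1794. With that fold required, 23 p53 targets, 20 G2/M and 13 S phase genes passed, and leaving out 1 library gave 68 to 71, 52 to 53 and 38 to 41. The medians of these 3 lists and of the histones then lay at 0.58 to 0.64, -0.97 to -0.91, -0.86 to -0.80 and -1.49 to -1.35, with 52 to 54 histone genes. Upper quartile normalization raised the share of up-regulated genes among those changed from 48.2% to 56.8% and the median of all genes from -0.0099 to 0.028.

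Against P. chinensis, 4 genes higher and 15 lower kept a fold of at least 1, 183 and 66 remained called in number with only the groups compared, DESeq2 gave 501 higher, and leaving out 1 library gave 95 to 231 and 26 to 71. Against B. chinense, no gene kept that fold in either direction (0 and 0), DESeq2 gave 61 and 10, the correction for GC content and length 7 higher, and leaving out 1 library 2 to 3 and 2 to 5. For the difference between lines, 932 called genes above and 302 below 0 had at least 1. Called above 0 were 1457 after the GC and length correction and 1482 in a fit of only the groups compared. Leaving out 1 library gave 1947 to 2754 called above and 1725 to 2736 called below.

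Replicate numbers did not pair the groups, since the deviations of same-numbered libraries correlated at -0.030, -0.0085 and 0.047 across genes. With the replicate number as a block, 176 genes were higher and 61 lower than with P. chinensis, and 2 higher than with B. chinense, and the block moved no other count over all genes by more than 1.5 times, while glucocorticoid receptor targets that fell went from 6 to 3. Single members that rose or fell against the rest of their list lost their calls in the nucleotide list (1 to 0) and the chromatin list (2 to 1) without any of several single libraries. Over all alternatives for the named genes, the required fold included, 186 values lost their call, 12 gained one and none changed direction. Part of the 186 were lost by rule, because the required fold drops every smaller change. The cause of these changes was not tested, apart from those that follow from fewer libraries or a required fold.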

Other observations

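Several other gene groups changed in A549 cells with P. umbellatus, set here against 13.6% up-regulated and 14.6% down-regulated over all genes tested. Of 37 genes of lysosomes and autophagy 14 rose and 2 fell, with a median log2 fold change of 0.24, led by WIPI1, which binds phosphoinositides on forming autophagosomes, from 9.32, 7.36 and 7.6 CPM to 20.3, 23.5 and 19 CPM (log2 fold change 1.35 ± 0.16, adjusted p = 2.1e-05 in edgeR), while NPC1, which exports cholesterol from lysosomes, fell by 0.42. Of 10 mucins and differentiation genes 6 fell and none rose. Of 37 genes of hypoxia and glycolysis 9 rose (24.3%) and 8 fell (21.6%). ANGPTL4, a lipase inhibitor, went from 10.2, 20.9 and 19.6 CPM to 40.7, 42.8 and 38.7 CPM (1.24 ± 0.19). CA9, a carbonic anhydrase, went from 4.91, 4.42 and 5.68 CPM to 1.12, 1.2 and 1.61 CPM (-1.80 ± 0.30). The glucose transporters went in opposite directions, with SLC2A1 at 0.51 ± 0.12 and SLC2A3 at -1.69 ± 0.17. Of 32 kinesins, a family that holds motors of mitosis, 18 fell and 4 rose, but only 1 rose without control replicate 3 or without treated replicate 1, and 2 after correction for GC content and length. TUBA1B, the main alpha-tubulin of dividing cells, fell from 2850.5, 2749.8 and 2833 CPM to 1688, 1791 and 1871 CPM (-0.66 ± 0.06), and its close paralogue TUBA1A rose from 85.3, 84.1 and 70.3 CPM to 142, 149 and 149.6 CPM (0.88 ± 0.07), but reads shared between these near-identical genes make the split uncertain. Of 452 zinc finger genes named ZNF 20 rose and 24 fell, 4.42% and 5.31%, below the 13.6% and 14.6% of all genes.

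Among epithelial markers KRT19 rose from 10.5, 16.2 and 14.1 CPM to 41.3, 36.1 and 37.4 CPM (1.47 ± 0.12), and EPCAM was scarce, at 3.91, 5.4 and 2.98 CPM in the control libraries and 0.709, 0.92 and 1.36 CPM with P. umbellatus (-1.88 ± 0.47). ABCA3, a lipid transporter of alveolar type II cells, rose from 61.5, 60.9 and 66.1 CPM to 133, 125 and 137 CPM (1.07 ± 0.08). Of 15 glucocorticoid receptor targets 6 fell and 2 rose (40% and 13.3%, against 14.6% and 13.6% over all genes). FKBP5, a chaperone of the receptor, was down by 0.68 on the log2 scale. Only 3 of the 15 fell with the replicate block or without any 1 of control replicates 1 and 2 and the 3 treated replicates.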
